A study of Mus musculus with 12 samples.

Results

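The genes described here are 5 Toll-like receptors (Tlr1, Tlr2, Tlr4, Tlr6 and Tlr13), the co-receptor Cd14, the adaptor Myd88, the kinases Irak2 and Irak3, and the amplifying receptor Trem1, as measured in sorted mouse neutrophils. They were chosen by symbol, through the Ensembl identifiers of the count table, and all 10 are among its 48709 genes. All 10 also passed the filter on low counts (over 1 CPM, counts scaled to library size, in at least 3 libraries), which left 12488 genes for testing. RNA was sequenced from neutrophils of adult male C57BL/6N mice in 3 groups. Control splenic neutrophils came from the spleens of untreated mice (3 libraries), 24-hour neutrophils from livers taken 24 hours after a single intraperitoneal injection of carbon tetrachloride (CCl4), a hepatotoxin given in corn oil (4 libraries), and 72-hour neutrophils from livers taken 72 hours after it (5 libraries). Cells of all groups were enriched with anti-Ly6G beads and sorted as Ly6Ghi Ly6Cint CD11b+ CD45+. Livers, unlike spleens, were digested with enzymes and their cells passed over a density gradient, and no liver neutrophils of untreated mice were analysed here. Organ, isolation and injury therefore change together, and their parts in a difference from the spleen cannot be told apart.

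Toll-like receptors recognise microbial molecules and molecules released by damaged tissue. TLR2 pairs with TLR1 or TLR6 to bind bacterial lipopeptides, TLR4 binds lipopolysaccharide that CD14 hands on to it, and TLR13, which sits in endosomes, recognises bacterial ribosomal RNA. Most of them signal through the adaptor MYD88, which assembles IRAK kinases. IRAK2 sustains the signal, and IRAK3 (also called IRAK-M) restrains it. TREM1, a receptor of neutrophils and monocytes that signals through the adaptor DAP12 (encoded by Tyrobp), amplifies the response.

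The total on genes lay between 1267089 and 3017403 counts in a library, which was 2.71% to 3.18% of the uniquely aligned reads. A stranded kit was used for the libraries, and which strand was counted is not given in the sources used here. Each of the 20 genes highest in total count shares exon bases with a gene of the other strand, as do 39.8% of the tested genes. Each value below is the count on the gene's row, and whether it comes from the gene's own transcript was not tested. Tlr1, Tlr2, Tlr4, Tlr6, Tlr13, Cd14 and Trem1 share no exon base with an annotated gene on the opposite strand, whereas Myd88, Irak2 and Irak3 do. At 72 hours, replicates 2 and 3 stood apart with 1.91% and 1.98% unaligned reads, against 49.6% to 50.7% in the other 10 libraries. The summed level of 10 neutrophil markers was 1918 to 8922 CPM in control splenic, 1011 to 2524 in 24-hour and 1963 to 2416 in 72-hour neutrophils, and edgeR called 4 of the 10 markers lower than in the spleen at 24 hours and 6 at 72 hours, where 4.4% and 2.71% of all tested genes were called lower. At 72 hours the Wald test of DESeq2 and limma-voom each called 4 of them lower, neither S100a8 nor S100a9 among them. Of 14 macrophage and monocyte markers, 9 had at most 3 counts in every library, and Clec4f, C1qa and Ms4a7 had 0 in all. Their summed level was 92.4 to 154 CPM in control splenic, 135 to 206 in 24-hour and 125 to 189 in 72-hour neutrophils. The 7 hepatocyte markers summed to 2.32 to 6.11, 14.1 to 19.8 and 3.24 to 29.1 CPM. In the same order, the sums were 44.2 to 54.0, 25.5 to 61.2 and 24.0 to 45.2 CPM for 5 B cell markers, and 1.29 to 2.17, 1.20 to 7.07 and 1.30 to 5.87 CPM for 6 T and NK cell markers. They were 25.5 to 71.7, 32.8 to 59.1 and 41.5 to 66.7 CPM for 5 endothelial markers, and 40.8 to 137, 14.5 to 52.5 and 52.6 to 91.7 CPM for 5 dendritic cell markers. Since these are bulk samples, fewer cells of a type and less RNA per cell cannot be told apart.

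Of the genes called higher than in the spleen below, the stretches upstream of Tlr2, Tlr13 and Trem1 are shown because they were searched for motifs of factors that act downstream of these receptors or in myeloid cells. The part of the RefSeq promoter table (GRCm38.p6) that was searched held 8 of the 10 genes, with 11 start sites. Tlr4 and Cd14 were not in that part. Each stretch below comes from the 250 bases before the RefSeq start, whole for Trem1, and for Tlr2 and Tlr13 without the bases that lie inside the Ensembl gene. They lie at chr3:83841768-83841858 (minus strand) for Tlr2, chrX:106143025-106143203 (plus strand) for Tlr13 and chr17:48232489-48232738 (plus strand) for Trem1. Capitals mark a κB consensus match in Tlr2 and the letters GAGGAA, the core bound by the myeloid factor PU.1, in Tlr13 and Trem1.
Tlr2: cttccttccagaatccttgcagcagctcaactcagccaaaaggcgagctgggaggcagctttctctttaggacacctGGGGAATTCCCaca
Tlr13: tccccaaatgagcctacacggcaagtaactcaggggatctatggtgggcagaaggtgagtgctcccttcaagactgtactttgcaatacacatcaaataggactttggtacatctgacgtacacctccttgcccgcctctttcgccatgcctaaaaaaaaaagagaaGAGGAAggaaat
Trem1: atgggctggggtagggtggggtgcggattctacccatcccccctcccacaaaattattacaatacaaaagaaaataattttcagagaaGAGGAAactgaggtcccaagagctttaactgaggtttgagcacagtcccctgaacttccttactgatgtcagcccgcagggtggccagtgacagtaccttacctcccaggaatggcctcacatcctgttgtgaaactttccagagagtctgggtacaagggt

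The Tlr2 stretch holds 2 overlapping κB matches from base 173 to base 163 before the RefSeq start. Both read on the strand shown, and the one nearer the start reads the same on the other strand. Over all 250-base windows of the table outside chromosome 18 (32851), 7.25% hold a κB match on either strand. Tlr2 was the 1 gene with such a match among the 8 matched. Cd14 lies on the chromosome left out, so its upstream bases were not searched. GAGGAA was found for Tlr1, Tlr13 and Trem1 and in 23.3% of all windows. The letters GAAA repeated after 2 unspecified bases, as in interferon-responsive elements, were found for Myd88 and Tlr6 and in 2.98% of all windows. The AP-1 letters TGANTCA, present in 6.75% of all windows, were not in the windows of these genes. Different motifs do not overlap in the stretches shown, and a match is a run of letters and not a measured site.

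In 24-hour neutrophils, Cd14, Tlr2, Trem1 and Tlr13 were higher than in control splenic neutrophils. Cd14 rose 12-fold and the other 3 rose by 2.15-fold to 2.41-fold. A call required an adjusted p under 0.05 together with a log2 fold change of 0.5 or more in either direction (edgeR's quasi-likelihood test on the counts, Benjamini-Hochberg over all tested genes), and 4 of 10 genes were called, all of them higher. Over all tested genes, 5.35% were called higher and 4.4% lower. In 72-hour neutrophils, 3 of 10 genes (Cd14, Trem1 and Tlr2) were called, all higher, where 2.63% of tested genes were called higher and 2.71% lower. The 24-hour count fell to 1 without spleen replicate 1 and to 2 without spleen replicate 2 or liver replicate 1, 2 or 4, and Cd14 kept its call in each case. With limma-voom the 24-hour count was 2 (Cd14 and Tlr2). Between the liver time points, 1.65% of tested genes were called higher at 72 hours and 2.84% lower, and edgeR called 0 of the 10. In that comparison 2 of the 10, Tlr1 and Trem1, had an unadjusted p below 0.05, limma-voom called 0 and the Wald test of DESeq2 called 1 (Tlr1).

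**Figure D1:**
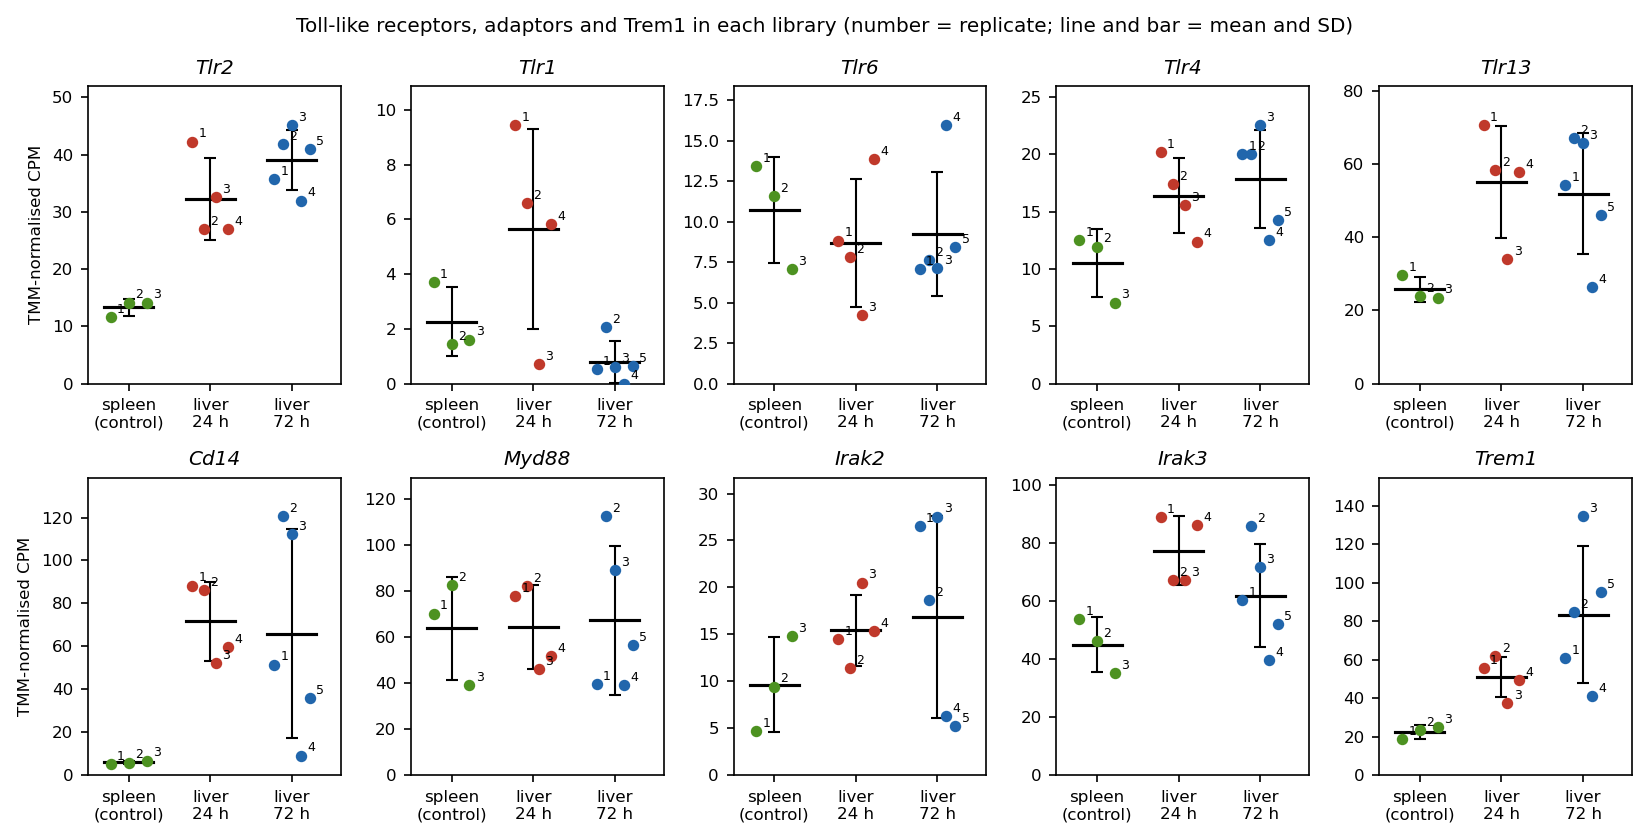
Level of each of the 10 genes in every library, in TMM-normalised CPM on a linear axis from 0, where points are libraries with their replicate numbers, lines are group means and bars are SDs. Every 24-hour and 72-hour point lies above every spleen point for Tlr2, Cd14 and Trem1, whereas the groups overlap for Myd88 and Tlr6, and Cd14 at 72 hours spans 9.03 to 120.6 CPM.

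**Figure D2:**
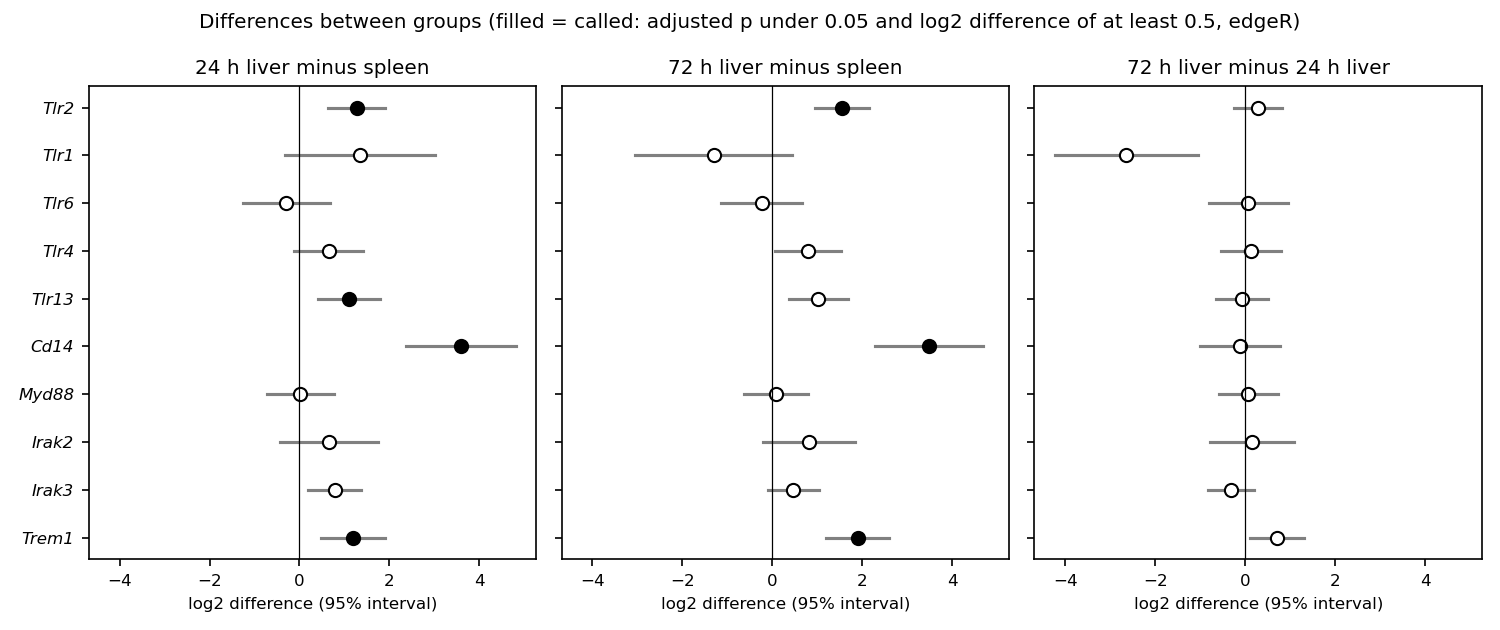
Log2 fold change of each of the 10 genes in the 3 comparisons (x axis) with its 95% interval from edgeR, filled where the gene was called. Cd14 is farthest from 0 in both comparisons with the spleen, at 3.59 and 3.48, and there is no filled point in the comparison of 72 with 24 hours.

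Cd14, which hands lipopolysaccharide to TLR4 (chromosome 18, 36725067 to 36726798, minus strand), had 5.10, 5.80 and 6.75 CPM in the 3 spleen libraries. The 24-hour libraries had 88.3, 86.4, 52.3 and 59.8 CPM, and the 72-hour libraries 51.5, 120.6, 112.4, 9.03 and 35.7. Every liver library lay above every spleen library, but the 72-hour libraries differed widely, with replicates 2 and 3 highest and replicate 4 close to the spleen. The log2 fold change was 3.59 (SE 0.59, 95% interval 2.36 to 4.81, edgeR adjusted p = 4.6e-04) at 24 hours and 3.48 (SE 0.58, edgeR adjusted p = 5.4e-04) at 72 hours. Without 72-hour replicates 2 and 3, the libraries of low unaligned share, the 72-hour value was 2.44 (edgeR adjusted p = 0.00441), and without replicates 1, 2 and 3 it was 1.91 (edgeR adjusted p = 0.0496). Between 72 and 24 hours it was -0.10 (SE 0.43, 95% interval -0.99 to 0.78), but -1.15 (edgeR adjusted p = 0.152) without 72-hour replicates 2 and 3 and -1.67 (edgeR adjusted p = 0.0578) without replicates 1, 2 and 3. Since monocytes and macrophages also carry Cd14, their marker levels bear on it. In the 72-hour replicate 4, with the least Cd14 of that group, their sum was 125 CPM, the lowest of the 5. Csf1r made 107 CPM of that sum and shares exon bases with Hmgxb3 on the opposite strand. In the same library Cx3cr1 (3.47 CPM, 5 counts) was highest and Adgre1 (9.03 CPM, 13 counts) second highest of the 5. Replicate 3 had nearly the same Cx3cr1 level (3.41 CPM), and such counts are too few to rank the libraries. Cx3cr1 also shares exon bases with a gene on the opposite strand. The part of such cells in the Cd14 result was not tested.

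Tlr2 (chromosome 3, 83836272 to 83841767, minus strand), the receptor that pairs with TLR1 or TLR6, had 11.6, 14.1 and 14.2 CPM in the spleen. It had 42.3, 27.0, 32.5 and 27.0 CPM at 24 hours and 35.8, 41.8, 45.2, 32.0 and 40.9 at 72 hours. No liver library reached down to the spleen range, and at 72 hours the libraries lay closer together than for the other called genes. The log2 fold change was 1.27 (SE 0.30, 95% interval 0.64 to 1.90, edgeR adjusted p = 0.00931) at 24 hours and 1.55 (SE 0.29, 95% interval 0.95 to 2.16, edgeR adjusted p = 0.00169) at 72 hours, which is 2.93-fold. Leaving out spleen replicate 1 ended the 24-hour call (edgeR adjusted p = 0.0575), and taking replicates 4 and 5 alone for 72 hours ended the 72-hour call (edgeR adjusted p = 0.056). From 24 to 72 hours the difference was 0.28 (95% interval -0.24 to 0.81).

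The partners of TLR2 had lower mean levels per exon length than Tlr2 in all 3 groups. Tlr6 (chromosome 5, 64952031 to 64960097, minus strand) had 13.5, 11.6 and 7.07 CPM in the spleen, 8.83, 7.80, 4.24 and 13.9 at 24 hours, and 7.05, 7.60, 7.12, 16.0 and 8.44 at 72 hours. Its 3 groups overlapped, with log2 fold changes of -0.30 (95% interval -1.26 to 0.67) at 24 hours and -0.23 (95% interval -1.13 to 0.67) at 72 hours against the spleen. Neither value passed the test (edgeR adjusted p = 0.737 and 0.878). Tlr1 (chromosome 5, 64924679 to 64933563, minus strand) was the gene of fewest counts, with 8, 4 and 5 counts in the spleen, 15, 11, 1 and 8 at 24 hours, and 1, 6, 2, 0 and 1 at 72 hours. This corresponds to 2.26 ± 1.26 CPM (SD, n = 3), 5.65 ± 3.65 CPM (n = 4) and 0.777 ± 0.771 CPM (n = 5). The 24-hour libraries lay above all 72-hour libraries except for replicate 3, which lay among them. Between 72 and 24 hours the log2 fold change was -2.64 (SE 0.77, 95% interval -4.23 to -1.05, edgeR adjusted p = 0.0503), which misses the threshold. Against the spleen it was 1.34 (SE 0.81, edgeR adjusted p = 0.3) at 24 hours and -1.30 (SE 0.84, edgeR adjusted p = 0.485) at 72 hours.

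Within a library, the count of Tlr2 per exon length was 1.07, 1.51 and 2.47 times that of Tlr6 in the spleen. It was 5.92, 4.28, 9.48 and 2.41 times at 24 hours and 6.28, 6.80, 7.85, 2.47 and 5.99 times at 72 hours, so that 24-hour replicate 4 and 72-hour replicate 4 reached the upper end of the spleen range. The count of Cd14 per exon length was 1.31 to 3.06 times that of Tlr4 in the spleen, 10.8 to 15.9 times at 24 hours, and 2.32 to 19.3 times at 72 hours, where 72-hour replicate 4 was again the lowest. These ratios do not depend on the scaling between libraries. They were chosen after the values were seen and carry no test.

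Tlr4, the lipopolysaccharide receptor (chromosome 4, 66827584 to 66930284, plus strand), had 12.5, 11.96 and 7.07 CPM in the spleen, 20.2, 17.4, 15.6 and 12.4 at 24 hours, and 20.1, 20.03, 22.6, 12.5 and 14.3 at 72 hours. The lowest library of each liver group lay just under the highest spleen library. Its log2 fold change was 0.65 (95% interval -0.12 to 1.42, edgeR adjusted p = 0.275) at 24 hours and 0.79 (95% interval 0.05 to 1.52, edgeR adjusted p = 0.245) at 72 hours. Tlr13 (chromosome X, 106143204 to 106160493, plus strand) had 29.7, 23.9 and 23.5 CPM in the spleen, 70.6, 58.2, 33.9 and 57.6 at 24 hours, and 54.2, 67.0, 65.6, 26.4 and 46.1 at 72 hours. All 24-hour libraries exceeded the spleen, and so did the 72-hour libraries other than replicate 4. It rose by 1.10 on the log2 scale (SE 0.33, 95% interval 0.42 to 1.79, edgeR adjusted p = 0.0368) at 24 hours, and the 72-hour value was 1.03 (SE 0.32, edgeR adjusted p = 0.0627). The first is called and the second is not, but the values lie 0.08 apart (95% interval of the 72-hour minus 24-hour difference -0.66 to 0.50). Leaving out 1 library at a time (12 fits) ended the 24-hour call of Tlr13 6 times (spleen replicate 1, 2 or 3, or liver replicate 1, 2 or 4), with edgeR adjusted p up to 0.129. The 24-hour call of Tlr13 was also lost with limma-voom. At 72 hours Tlr13 passed the threshold without replicate 4 (1.18, edgeR adjusted p = 0.0138), without 24-hour replicate 3 (edgeR adjusted p = 0.0486), with no filter (edgeR adjusted p = 0.0407), with the replicate block (edgeR adjusted p = 0.0323) and with the Wald test of DESeq2 (adjusted p = 0.0301). Its value was 0.73 without replicates 2 and 3 and 0.50 without replicates 1, 2 and 3 (edgeR adjusted p = 0.408 and 0.756).

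Trem1 (chromosome 17, 48232768 to 48246924, plus strand), the amplifying receptor, had 18.6, 23.6 and 25.1 CPM in the spleen. It had 55.5, 61.8, 37.5 and 49.6 CPM at 24 hours and 60.7, 84.6, 134.6, 41.0 and 95.4 at 72 hours. No liver library overlapped the spleen, and 72-hour replicates 2, 3 and 5 exceeded every 24-hour library. The log2 fold change was 1.19 (SE 0.34, 95% interval 0.47 to 1.90, edgeR adjusted p = 0.0305) at 24 hours and 1.89 (SE 0.34, 95% interval 1.20 to 2.59, edgeR adjusted p = 0.001) at 72 hours, a 3.72-fold rise. The 72-hour call held in all 23 alternative fits, with values of 1.55 to 2.06. Omitting single libraries ended its 24-hour call 5 times out of 12 (spleen replicate 1 or 2, liver replicate 1, 2 or 4), with edgeR adjusted p up to 0.131. With limma-voom Trem1 was not called at 24 hours. Between 72 and 24 hours the value was 0.71 (95% interval 0.11 to 1.31, edgeR adjusted p = 0.164), which did not pass the test.

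Downstream of the receptors, Myd88, the shared adaptor (chromosome 9, 119335934 to 119341411, minus strand), had 70.1, 82.3 and 38.9 CPM in the spleen, 77.6, 82.2, 46.0 and 51.8 at 24 hours, and 39.6, 112.3, 88.8, 38.9 and 56.5 at 72 hours. The 3 groups spanned much the same range, and replicates 2 and 3 were the highest at 72 hours. Its log2 fold change was 0.02 (95% interval -0.73 to 0.77, edgeR adjusted p = 0.981) at 24 hours and 0.09 (95% interval -0.62 to 0.80, edgeR adjusted p = 0.946) at 72 hours. These libraries do not exclude changes of a size within these intervals. Irak2, the sustaining kinase (chromosome 6, 113638467 to 113695026, plus strand), had 4.64, 9.42 and 14.8 CPM in the spleen and 14.5, 11.4, 20.5 and 15.3 at 24 hours. At 72 hours it had 26.6, 18.7 and 27.6 CPM in replicates 1, 2 and 3 and 6.25 and 5.19 in replicates 4 and 5. The last 2 libraries lay at the level of the lowest spleen library, while replicates 1 and 3 lay above all 24-hour libraries. Its log2 fold change was 0.66 (SE 0.52, edgeR adjusted p = 0.456) at 24 hours and 0.82 (SE 0.49, edgeR adjusted p = 0.443) at 72 hours. Irak3, the restraining kinase (chromosome 10, 120141648 to 120202130, minus strand), had 53.8, 46.0 and 35.1 CPM in the spleen, 88.9, 67.2, 67.2 and 86.1 at 24 hours, and 60.2, 85.7, 71.5, 39.6 and 51.9 at 72 hours. The 24-hour libraries all exceeded the spleen, but the log2 fold change of 0.78 (SE 0.29, 95% interval 0.19 to 1.38, edgeR adjusted p = 0.0851) did not pass the test, nor did that of 0.47 (SE 0.27, edgeR adjusted p = 0.416) at 72 hours. The Wald test of DESeq2 called Irak3 at 24 hours (0.80, adjusted p = 0.0412).

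These 3 are the genes with a partner on the opposite strand. Myd88 shares 290 exon bases, 11.3% of its exon length, with Acaa1a, which encodes a peroxisomal thiolase. Acaa1a had 1389 to 1922 CPM in the spleen, 2499 to 3628 at 24 hours and 1186 to 1947 at 72 hours, which is 13.4 to 54.4 times the level of Myd88 in each of the 12 libraries. Acaa1a was called higher at 24 hours (log2 fold change 0.82, edgeR adjusted p = 0.0176), when Myd88 was not called. Irak2 shares 196 exon bases (4.44%) with the predicted gene Gm43963, which had 189.7, 192.1 and 265.3 CPM in the spleen and 703.6 to 1060 at 24 hours. At 72 hours Gm43963 had 715.1, 808.3 and 702 CPM in replicates 1, 2 and 3, and 291.1 and 282.3 in replicates 4 and 5, which are also the libraries of least Irak2 at that time. Gm43963 was called higher at both times (2.07, edgeR adjusted p = 4.0e-04, and 1.38, edgeR adjusted p = 0.0094). Irak3 shares 220 exon bases with genes on the other strand, one of which, Gm47009, was not analysed here. The other, Tmbim4, had 2.25 to 11.1 CPM, and Irak3 was 6.33 to 19.7 times higher. The part of these partners in the values of Myd88, Irak2 and Irak3 was not tested.

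**Figure D3:**
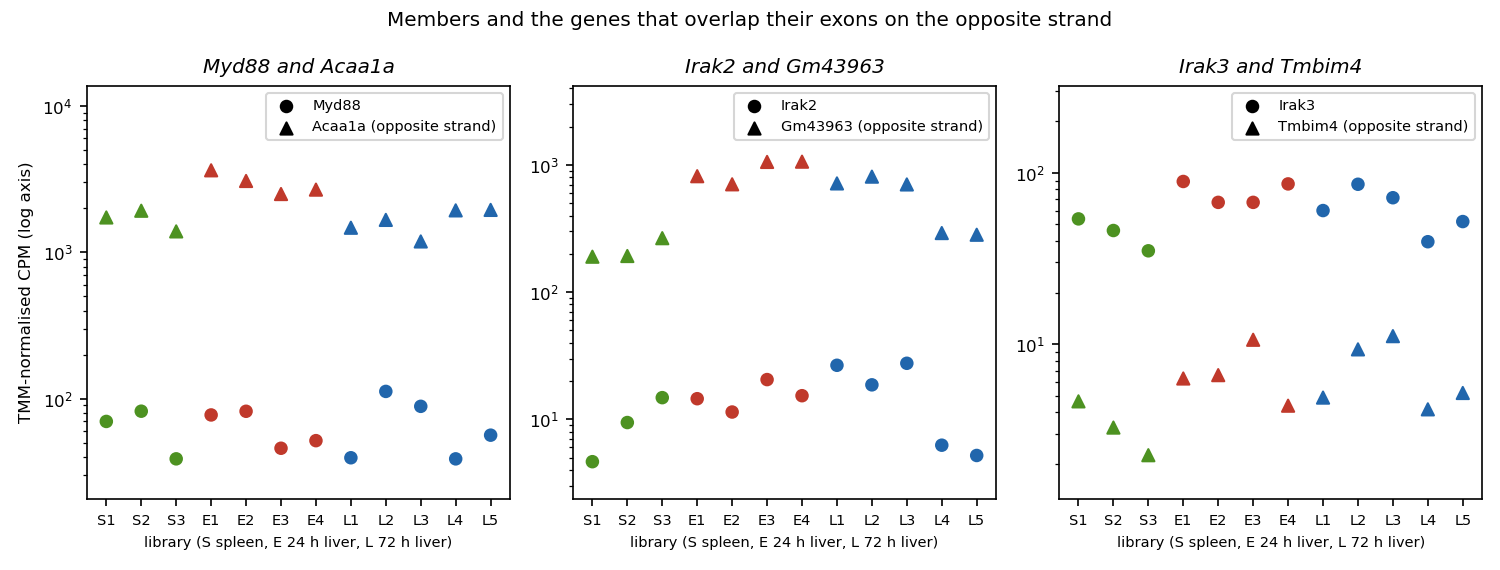
Levels of Myd88, Irak2 and Irak3 (circles) and of the genes that share exon bases with them on the opposite strand (triangles) in each library, in TMM-normalised CPM on a log axis, where S is spleen, E 24-hour liver and L 72-hour liver. Acaa1a and Gm43963 lie above Myd88 and Irak2 in all 12 libraries, Irak2 and Gm43963 are both low in 72-hour replicates 4 and 5, and Tmbim4 lies below Irak3 in all 12.

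Considered together, the 10 genes had a median log2 fold change of 0.94 at 24 hours, with 9 of 10 values positive, where the median over all tested genes was -0.23. At 72 hours the median was 0.80 with 8 of 10 positive, against -0.02 over all tested genes, and both comparisons share the 3 spleen libraries. The groups did not overlap for 5 of the 10 at 24 hours (Tlr2, Tlr13, Cd14, Irak3 and Trem1, all higher), against 22.8% of tested genes in either direction. At 72 hours they did not overlap for 3 of 10, against 12%. Between the liver time points the median was 0.07, against 0.18 over all tested genes, and the groups overlapped for every one of the 10, where 9.51% of tested genes did not overlap.

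The order of the genes by level per exon length (CPM per kilobase) also differed between groups. In control splenic neutrophils Myd88 stood first in all 3 libraries (24.8 ± 8.68, SD, n = 3), followed by Irak3 (12.2 ± 2.56), which exceeded the next gene in all 3. Trem1 (7.48), Tlr13 (5.97) and Tlr2 (4.41) came next, then Cd14 (3.40 ± 0.478), with Tlr6, Irak2, Tlr4 and Tlr1 below. Trem1 and Tlr13 exchanged places in 1 of the 3 libraries, as did Cd14 and Tlr6. In 24-hour neutrophils Cd14 stood first in all 4 libraries (41.4 ± 10.6, n = 4), ahead of Myd88 (25.0 ± 7.05) and Irak3 (21.04 ± 3.21), which did not differ beyond their spread. In 72-hour neutrophils Cd14 (38.0 ± 28.1, n = 5), Trem1 (27.8 ± 11.9) and Myd88 (26.1 ± 12.6) led with overlapping spreads, and Cd14 ranged from first to sixth between libraries. Tlr1 was last in all 5 (0.232 ± 0.231). These are levels on the genes' rows, and the sharing with opposite-strand genes touches the places of Myd88, Irak2 and Irak3.

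For the called genes, the tested genes with the most similar profile over the 12 libraries were found by the root mean square distance of centred log2 CPM, a measure of likeness that carries no test. For Cd14 they were Gm45437 (0.43), Tnfaip3 (0.44) and Acod1 (0.48), where the median distance over all genes was 1.77. For Tlr2 they were Vmp1 (0.26), Rbm47 (0.27) and Slc15a4 (0.29), with a median of 0.92. Gm10640 (0.20), Atxn7l3 (0.24) and Tgfbi (0.28) were nearest to Tlr13 (median 0.89), and Pde4b (0.27), Lmbrd1 (0.29) and Vps39 (0.31) to Trem1 (median 1.04). Among these, Gm45437, Rbm47, Slc15a4 and Gm10640 share exon bases with a gene on the opposite strand.

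The remaining pathway was followed through 53 further genes grouped by role, of which 41 passed the filter. At 24 hours 2 of the 41 were called higher and 5 lower, where 5.35% and 4.4% of all tested genes were. At 72 hours 1 was called higher and 2 lower, against 2.63% and 2.71% of all tested genes, and the 2 lower became 0 with the Wald test of DESeq2 and with limma-voom. Between the liver times 2 were higher at 72 hours, against 1.65%. Their median log2 fold change was -0.28, 0.13 and 0.57 in the same order. Of the other Toll-like receptors, Tlr3, Tlr11 and Tlr12 had 0 counts in every library. Tlr8, an endosomal receptor of single-stranded RNA, fell at 24 hours by 2.37 on the log2 scale (SE 0.74, edgeR adjusted p = 0.0459). Its level was 5.44 ± 2.31 CPM in the spleen and 1.03 ± 0.475 at 24 hours (SD, n = 3 and 4), with at most 26 counts in any library. The call was lost with limma-voom (adjusted p = 0.0872) and without any 1 of the 7 spleen and 24-hour libraries, with edgeR adjusted p of 0.0524 to 0.118. It was also lost without genes that have an opposite-strand partner (edgeR adjusted p = 0.0696). Tlr5, Tlr7 and Tlr9 passed the filter but were not called at 24 hours (edgeR adjusted p = 0.214, 0.827 and 0.155).

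Among the inhibitors, Tnfaip3, which encodes the deubiquitinase A20, had 2.78, 1.09 and 4.50 CPM in the spleen and 36.0, 27.6, 25.5 and 14.6 at 24 hours. At 72 hours it had 15.7, 46.3 and 47.4 CPM in replicates 1, 2 and 3 but 4.17 and 9.73 in replicates 4 and 5, so that replicate 4 fell within the spleen range. It rose by 3.17 on the log2 scale at 24 hours (SE 0.69, edgeR adjusted p = 0.00464) and by 3.14 at 72 hours (SE 0.67, edgeR adjusted p = 0.00482). At 72 hours the call ended without replicates 2 and 3 (1.80, edgeR adjusted p = 0.122), without replicates 1, 2 and 3 (1.29, edgeR adjusted p = 0.518), without spleen replicate 2 (edgeR adjusted p = 0.0506) and with limma-voom (adjusted p = 0.059). Tnip1, which binds A20, rose at 24 hours from 9.47 ± 3.52 to 38.5 ± 8.91 CPM (log2 fold change 2.03, SE 0.52, edgeR adjusted p = 0.0138). Neither gene shares exon bases with a gene on the opposite strand. The other 4 tested inhibitors (Tollip, Socs1, Cyld and Otud7b) were not called at 24 hours, with values of -0.46 to 2.17.

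Traf6, the ubiquitin ligase that acts below the IRAK kinases, fell from 22.6 ± 4.82 CPM in the spleen to 7.96 ± 4.98 at 24 hours (log2 fold change -1.52, SE 0.45, edgeR adjusted p = 0.0337). Leaving out spleen replicate 1 or 2 or 24-hour replicate 1 or 2 ended that call (edgeR adjusted p of 0.0633 to 0.138). So did leaving out genes with an opposite-strand partner (-1.37, edgeR adjusted p = 0.0557). The other 12 tested adaptors, kinases and ligases were not called at 24 hours, Irak4 among them (0.09, edgeR adjusted p = 0.823). Irak4 shares exon bases with a gene on the opposite strand, as do Tirap and Ecsit of these 12. Tyrobp, the partner of TREM1, fell at 24 hours from 182.3, 159.9 and 124.1 CPM to 92.1, 95.4, 79.2 and 67.1. At 72 hours it had 126.9, 156.8, 193.1, 161.2 and 211.5 CPM, all above the 24-hour range. Its log2 fold change was -0.90 (SE 0.24, edgeR adjusted p = 0.0201) at 24 hours against the spleen and 1.02 (SE 0.22, edgeR adjusted p = 0.0106) between 72 and 24 hours. Trem1 and Tyrobp were thus called in opposite directions at 24 hours, and the call of Tyrobp was lost without spleen replicate 1 or 2 or 24-hour replicate 4 (edgeR adjusted p up to 0.117). Leaving out genes with an opposite-strand partner also ended the 24-hour call of Tyrobp (-0.77, edgeR adjusted p = 0.0804). The same setting ended its call between 72 and 24 hours (0.86, edgeR adjusted p = 0.0615). Cnpy3, a chaperone of Toll-like receptors, was higher at 72 hours (19.8 ± 3.11 CPM, n = 5) than at 24 hours (6.05 ± 3.70, n = 4). The log2 fold change was 1.73 (SE 0.41, edgeR adjusted p = 0.0186). That call was lost without 24-hour replicate 1 or 2 (edgeR adjusted p = 0.0705 and 0.0593). It was also lost without 72-hour replicates 2 and 3 and without 72-hour replicates 1, 2 and 3 (edgeR adjusted p = 0.0844 and 0.0938).

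S100a8 and S100a9, whose protein complex is an endogenous ligand of TLR4, fell at 24 hours, and at 72 hours edgeR alone called them lower. S100a9 had 3937, 3969 and 338.6 CPM in the 3 spleen libraries, 215.2 to 723.4 at 24 hours and 574.5 to 865.8 at 72 hours. Spleen replicate 3 thus lay far below replicates 1 and 2 and among or below the liver libraries, as it did for S100a8 (1308, 1372 and 80.1 CPM). The log2 fold change of S100a9 was -2.71 (SE 0.50, edgeR adjusted p = 0.00132) and -1.87 (SE 0.46, edgeR adjusted p = 0.0148), and that of S100a8 -2.98 (SE 0.58, edgeR adjusted p = 0.00191) and -1.76 (SE 0.52, edgeR adjusted p = 0.0496). At 72 hours neither the Wald test of DESeq2 (adjusted p = 0.0541 for S100a9 and 0.145 for S100a8) nor limma-voom (adjusted p = 0.26 and 0.459) called them, and edgeR did not without spleen replicate 1 or 2. For S100a8, 10 of the 12 single-library omissions ended the edgeR call. At 24 hours limma-voom did not call S100a8 (adjusted p = 0.0663). Neither Hmgb1, the other ligand followed, nor the interferon regulatory factors Irf3, Irf5 and Irf7 were called at 24 hours. Each of these genes shares exon bases with a gene on the opposite strand.

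**Figure D4:**
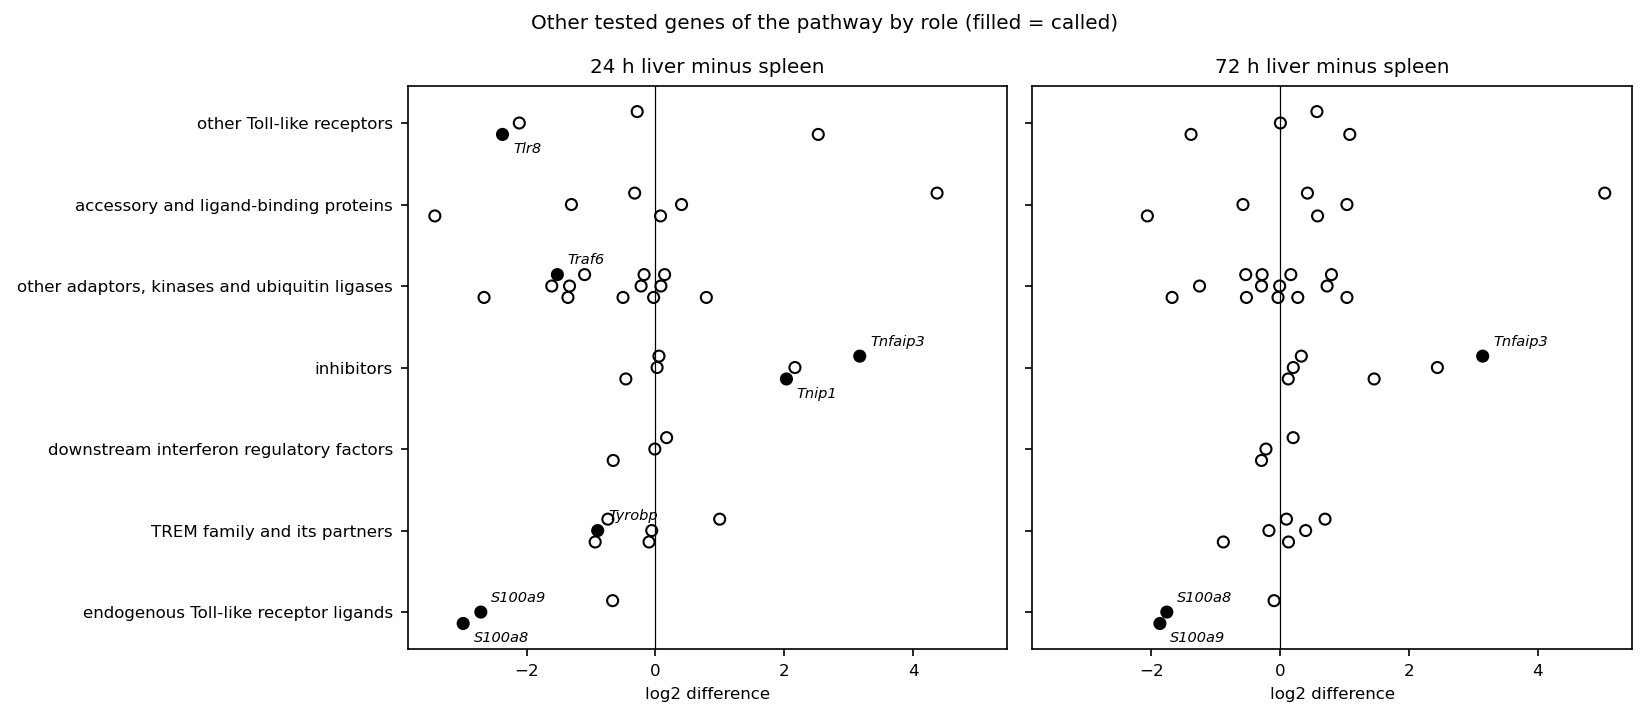
Log2 fold change (x axis) of the 41 tested further genes of the pathway, by role (rows), at 24 hours and at 72 hours against the spleen, where filled points are called genes and carry their names. At 24 hours Tnfaip3 and Tnip1 lie to the right and Tlr8, Traf6, Tyrobp, S100a8 and S100a9 to the left, and at 72 hours Tnfaip3, S100a8 and S100a9 are filled.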

How the data were processed

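RNA sequencing reads of 12 libraries were aligned to GRCm38 with STAR 2.7.9a (per the labels' processing notes), and the authors counted reads per gene with HTSeq-count. The deposited values are raw counts, with 5 summary rows that enter neither library sizes nor tests (2.71% to 3.18% of the uniquely aligned reads were on genes, and the rest in these rows). The strand option is not given in the sources used here. Of 48709 genes, 48349 matched GENCODE M21, which gave symbols, positions and opposite-strand overlaps. Counts were scaled by TMM and tested with edgeR 4.0.16 (R 4.3.3) in 1 fit of the 12 libraries. SE is the log2 fold change divided by the root of F. Plotted CPM use TMM library sizes. DESeq2 1.42.0, limma 3.58.1 (voom), other scalings and filters, a replicate block and leaving out libraries were alternatives. In simulated data for 24 hours against spleen (11848 genes), 3 of 50 genes raised 2-fold and 29 of 50 raised 4-fold were called. The labels do not say that libraries come from separate animals, so p-values measure the spread between these libraries. The 10 genes and all lists were chosen with earlier results of these data known. Named further genes are those called in a comparison, partners on the opposite strand, the 3 most similar genes of each called gene, and the examples of uncalled genes, which were chosen after their values were seen.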

Additional observations from a re-analysis of the deposited data

Results flagged for a closer look

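Tlr6 in 72-hour replicate 4 had 16.0 CPM, against 7.05 to 8.44 in the other 4 libraries of that group, and stood out by Dixon's test for a single outlying value. The same library had the lowest CPM of its group for Cd14, Tlr1, Tlr2, Tlr4, Tlr13, Trem1, Irak3 and Myd88. Chance picks out about 1 in 20 groups in such a test, and Tlr6 is measured there with 23 counts.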

How the results depend on the processing

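Of 678 recomputed log2 fold changes of the 10 genes, 617 kept their direction and their side of the threshold, 15 lost and 13 gained the call, and 33 changed sign. At 24 hours, 5 genes were called with the Wald test of DESeq2 (Irak3 added) and 2 with limma-voom (Tlr13 and Trem1 lost). The number was 1 to 4 with 1 library left out. At 72 hours it stayed between 2 and 4 in every alternative, and leaving out 1 library gave 3 to 4. Between 72 and 24 hours it was 1 (Tlr1) under DESeq2 size factors, upper-quartile scaling, no filter and the Wald test of DESeq2, and 0 to 1 with 1 library left out (1 without spleen replicate 3, 24-hour replicate 3 or 72-hour replicate 2). The Cd14 call against the spleen held in all 23 alternatives at each time.

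Every sign change was in a comparison in which the gene concerned was not called. At 72 hours against the spleen, Myd88 was -0.50 without the 2 libraries of low unaligned share, and without replicates 1, 2 and 3 Myd88 was -0.41, Tlr6 0.20 and Irak2 -0.76. Between 72 and 24 hours, upper-quartile scaling gave -0.009 for Tlr6 and -0.021 for Myd88, and leaving out genes with an opposite-strand partner gave -0.026 for Tlr4 and -0.10 for Tlr6. Without the 2 libraries of low unaligned share, the values were -0.064 for Tlr4, -0.52 for Myd88 and -0.25 for Irak2, and without replicates 1, 2 and 3 they were -0.29, -0.44 and -1.42. With 1 library left out, Myd88 ranged from -0.241 to 0.245 at 24 hours and from -0.177 to 0.315 at 72 hours. Between the liver times the ranges were -0.252 to 0.081 for Tlr13, -0.436 to 0.166 for Cd14, -0.203 to 0.37 for Tlr6, -0.194 to 0.211 for Myd88 and -0.09 to 0.365 for Irak2. The cause was not tested.

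Samples with the same replicate number showed little joint deviation (r of -0.116 to 0.13 over 10 pairs, 1 of them over 0.1). Across numbers, spleen replicate 3 had r of 0.157 with 24-hour replicate 4, 0.161 with 72-hour replicate 4 and -0.153 with 24-hour replicate 1. Whether libraries were paired or handled together was not tested. With the replicate number as a block the counts were 4, 4 and 0 in the 3 comparisons, and 2 of 9 samples correlated best with their own number.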
